A study of Homo sapiens with 2 samples.

Results

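The genes that encode the transcription machinery were examined for peaks of KDM1B chromatin immunoprecipitation (ChIP) over input. The members were the 100 protein-coding genes on chromosomes 1 to 22 and X whose symbols begin with POLR1, POLR2 or POLR3 and a letter, or with MED or TAF and a digit. The rule uses symbols and no measured value, over 19970 protein-coding genes, but the set was proposed with earlier results of these data known. They fell into 5 classes: RNA polymerase I (Pol I, 8 genes), polymerase II (Pol II, 15), polymerase III (Pol III, 10), Mediator (30) and TBP-associated factors (TAF, 37). The TAF symbols hold genes of different roles, and 13 of the 37 are the short tandem TAF11L copies on chromosome 5.

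KDM1B, also called LSD2, is a flavin-dependent demethylase of histone H3. The data came from MDA-MB-231, a human triple-negative breast cancer line, in which 3xFLAG-tagged KDM1B was stably expressed from a retroviral vector. 1 library was made after precipitation with the anti-FLAG M2 antibody and 1 from input chromatin of the same cells, so both groups carried the tagged protein and no untagged cells were analysed here. Precipitated signal that does not come from tagged KDM1B could therefore not be told apart. Since KDM1B was supplied from a vector, its amount may differ from that of the cells' own protein. With 1 library a group, replicate error could not be measured and differences were not tested. Values of members are therefore set beside the same values over all protein-coding genes, as descriptions. The peak list holds no expression values, so the identity of the cells was not checked with markers.

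Pol I makes ribosomal RNA, Pol II makes messenger RNA and Pol III makes transfer RNA and other short RNAs. The 3 enzymes have large catalytic subunits of their own and share several small ones. Mediator carries signals from activators to Pol II through its head, middle and tail modules, and a separable kinase module binds it reversibly. TAFs join the TATA-binding protein TBP in TFIID, which recognises Pol II promoters, and in SL1, which serves Pol I, while a few belong to the coactivator SAGA.

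KDM1B peaks were found at 87 of the 100 members, counting each peak with its midpoint inside the gene or in the 5 kb on either side, against 67.5% of all protein-coding genes. Per class, 6 of 8 Pol I, 15 of 15 Pol II, 10 of 10 Pol III, 27 of 30 Mediator and 29 of 37 TAF genes had a peak. The members together held 687 distinct peaks. The median member had 4 peaks, against 2 over all genes, and 26 members had 10 or more, against 12.5% of all genes. Scaled to length, the median was 21.1 peaks per 100 kb of gene and flanks for members and 3.82 for all genes. By class it was 26.8 for Pol I, 21.3 for Pol II, 28.7 for Pol III, 17.6 for Mediator and 23.5 for TAF genes.

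The cover of the genes by peaks differed widely between members. The share of the annotated gene span lying under peaks had a median of 21.0% in members (quartiles 4.59 and 44.04%), against 1.52% over all genes (quartiles 0 and 13.5%). The class median was 42.7% for Pol III, 28.6% for Pol I, 22.7% for Pol II, 22.2% for TAF and 16.9% for Mediator genes. This order depended on the setting: with 5 kb on each side added to the span, the medians were 39.5% for Pol I, 32.6% for Pol II and 31.6% for Pol III. With the stronger part of the list, peaks at or above its median ratio, Pol I had 17.3% and Pol III 16.3%. The quartiles of the classes overlapped widely: 6.55 and 67.0% for Pol III, 3.75 and 68.0% for Pol I, and 4.17 and 29.2% for Mediator. A cover of 25% or more was reached by 43 members, against 16.8% of all genes, and a cover of 50% or more by 23, against 7.28%. The latter were 3 Pol I, 5 Pol II, 5 Pol III, 2 Mediator and 8 TAF genes, and 7 of the 23 were the copies POLR2J2, POLR2J3 and 5 TAF11L genes. With only that stronger part, the median cover of members fell to 6.10% and that of all genes to 0%.

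**Figure D1:**
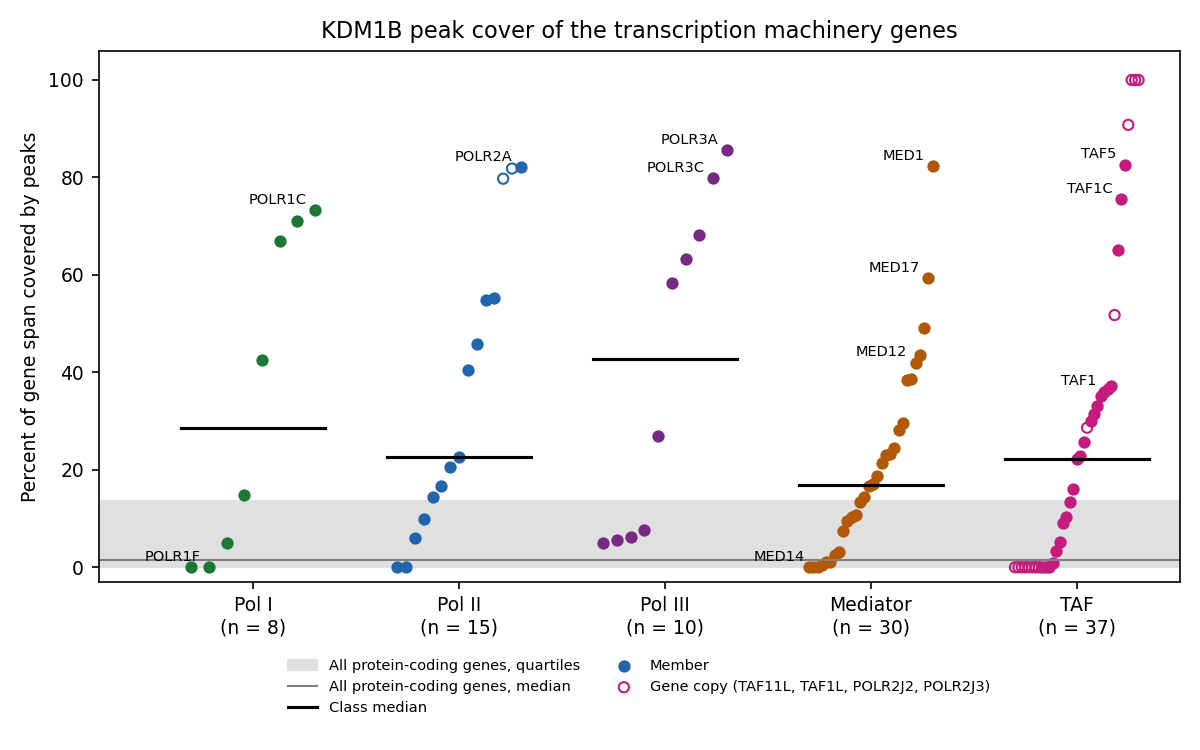
Percent of the annotated gene span covered by KDM1B peaks for each of the 100 members, by class, with class medians as black lines. The grey band and line give the quartiles and the median of all protein-coding genes, and open circles mark gene copies. All 5 class medians, from 16.9 to 42.7%, lie above the upper quartile of all genes, 13.5%, while every class but Pol III also has members at 0.

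Members were also set beside all genes of like length. Among members under 10 kb 34 of 42 had a peak, against 50.6% of all genes of that length. From 10 to 30 kb it was 22 of 25, against 69.4%, and from 30 to 100 kb 23 of 24, against 77.4%. At 100 kb or longer it was 8 of 9, against 76.7%. In the same 4 bands the median cover of members was 21.0, 18.7, 24.5 and 1.16%, beside 0, 4.62, 3.14 and 0.615% for all genes. In the longest band the members were uneven, from 0% at TAF4B to 36.1% at TAF1. A cover of 50% or more was found in 12, 3, 8 and 0 members of the 4 bands. These were 28.6, 12, 33.3 and 0% of members, where all genes stood at 8.26, 10.1, 7.36 and 0.925%. Between 10 and 30 kb the share of members past 50% was thus close to that of all genes. Without the TAF11L copies, TAF1L, POLR2J2 and POLR2J3, it was 5 of 26 members under 10 kb (19.2%).

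**Figure D2:**
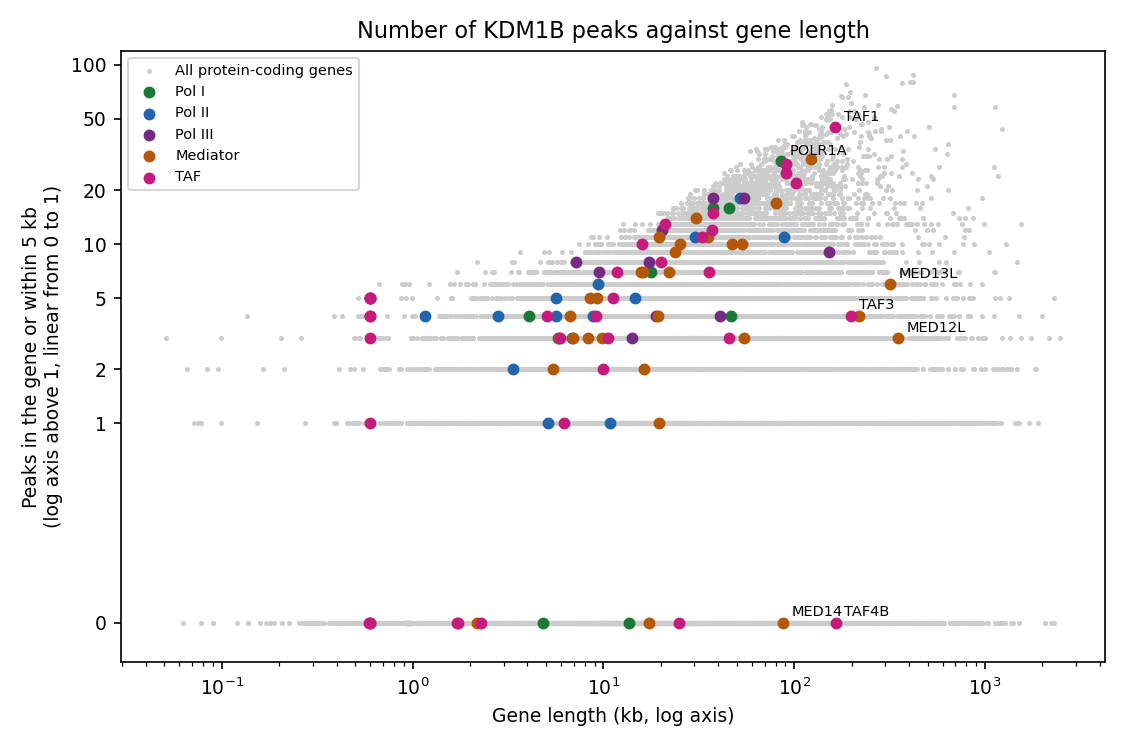
Number of KDM1B peaks in each gene or within 5 kb against gene length (log axis), with members coloured by class and all protein-coding genes in grey. TAF1 has the most peaks of the members, 45, while MED14 and TAF4B have none despite lengths of 87.9 and 165 kb.

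The genes of the largest catalytic subunits were covered over most of their span in all 3 polymerases. POLR3A (chromosome 10, 77975149 to 78029515, hg38) held 18 peaks and was 85.6% covered. POLR2A (chromosome 17, 7484366 to 7514616) held 11 peaks and was 82.1% covered, mostly by neighbouring peaks of 13.7 and 7.89 kb with log2 ratios of ChIP over input of 3.26 and 3.72. POLR1A (chromosome 2, 86020216 to 86105886) held 29 peaks and was 67.0% covered. The ratio of each peak is the authors' own value. The strongest peaks of these 3 genes were moderate, with log2 ratios of 3.90, 3.72 and 3.39. Among all genes of 30 to 100 kb with a peak, their band of length, the strongest peak per gene had a median of 3.86 and quartiles of 3.32 and 4.57. Single peaks of the whole list had a median of 2.99 and quartiles of 2.58 and 3.52. The 20 kb on each side of these genes were covered to 10.7% at POLR3A, 14.9% at POLR2A and 43.0% at POLR1A, against a median of 2.41% beside all genes. At POLR1A the neighbourhood was thus well covered too.

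The second largest catalytic subunits differed from each other. POLR1B (chromosome 2, 112542036 to 112579818) held 16 peaks over 71.0% of its span, with 10.5% of the surrounding 20 kb on each side covered. POLR2B (chromosome 4, 56978896 to 57031158) held 18 peaks over 40.5%. POLR3B (chromosome 12, 106357748 to 106510198) held 9 narrow peaks over 5.05%. The 9 peaks of POLR3B were at most 1.24 kb wide, against 9.76 kb for the widest of POLR3A.

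**Figure D3:**
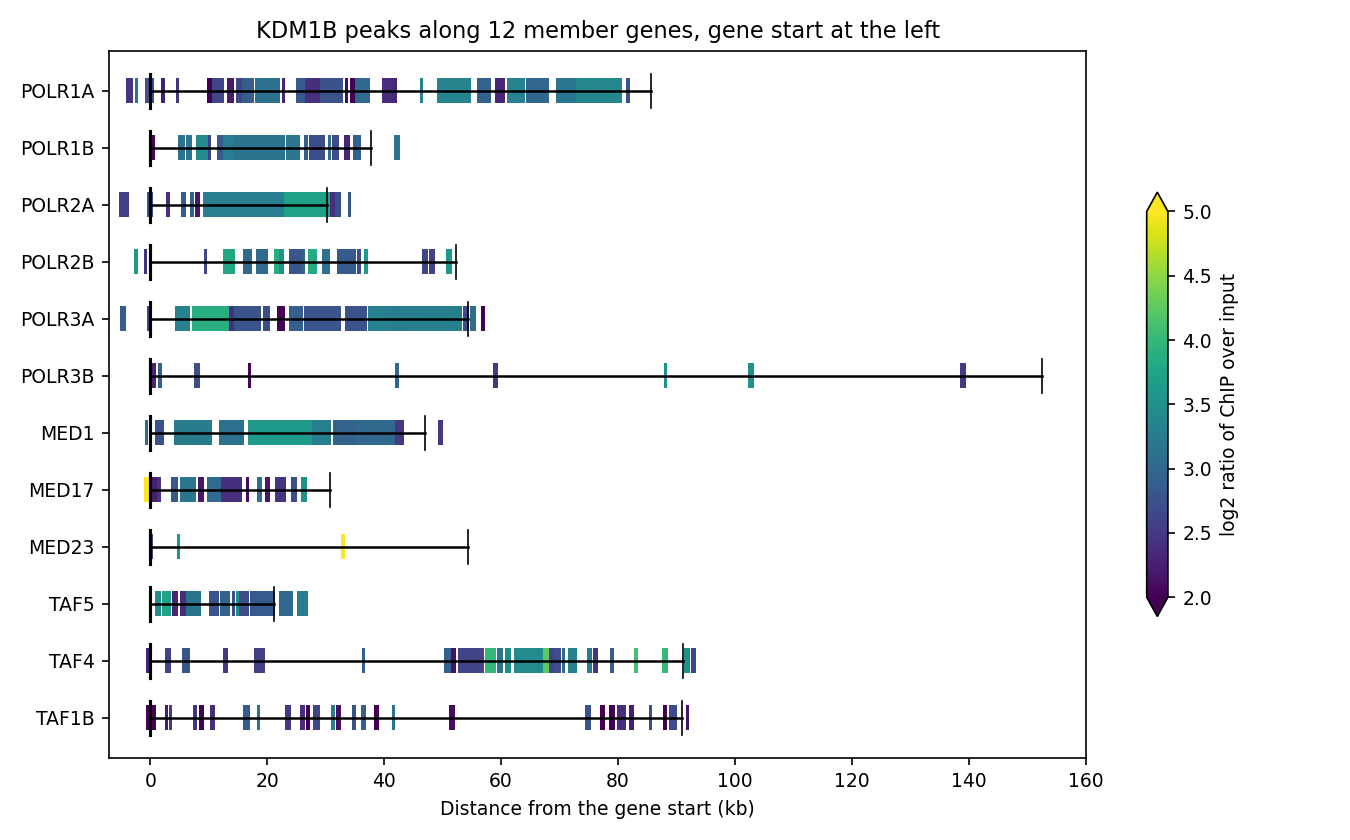
KDM1B peaks (boxes, coloured by log2 ratio of ChIP over input) along 12 members, with each gene drawn from its start at the left (tall tick) to its end, in kb. Peaks tile most of POLR1A, POLR1B, POLR2A, POLR3A, MED1 and TAF5, whereas POLR3B and MED23 carry 9 and 3 separate peaks.

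Other Pol I genes ranged from well covered to bare. POLR1C (chromosome 6, 43517089 to 43562407), whose product serves Pol I and Pol III, had 16 peaks over 73.4% of its span. Of these 16 midpoints, 14 lay in XPO5 or YIPF3, since the annotated span of POLR1C overlaps other genes. The widest member peak of all, 15.6 kb, had its midpoint in XPO5, past the end of POLR1C. POLR1D, the other subunit shared with Pol III, had 4 peaks over 5.00%. POLR1E (chromosome 9, 37485948 to 37503697), one of the Pol I-specific subunits, had 7 peaks over 42.5%. It held the highest log2 ratio of the class, 4.21, tied between neighbouring peaks. POLR1G, partner of POLR1E in the enzyme, had 4 peaks, all with midpoints in its neighbours ERCC1 or PPP1R13L, and 14.8% cover. POLR1F (chromosome 7, 19695461 to 19709037), the stalk subunit, and POLR1H (chromosome 6, 30060062 to 30064907) had none.

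Every Pol II gene had a peak, but several only through a neighbour. The subunits shared by all 3 enzymes, POLR2E, POLR2F, POLR2H, POLR2K and POLR2L, had 4, 11, 3, 2 and 4 peaks. Their cover was 55.2% at POLR2E, 10.0% at POLR2F, 14.3% at POLR2H, 0% at POLR2K and 22.7% at POLR2L. POLR2F held the strongest peak of the class, with a log2 ratio of 5.93 (chromosome 22, 37966376 to 37967021). The stalk subunits POLR2D and POLR2G stood at 45.7 and 0%. The only peak assigned to POLR2G (log2 ratio 2.14) had its midpoint in TMEM223 and was shared with TAF6L. POLR2C had 6 peaks over 16.6%, POLR2I 4 over 54.8%, and POLR2M, which encodes the Pol II-bound protein Gdown1, 1 over 5.95%. The 4 POLR2I peaks all had midpoints in OVOL3 or TBCB.

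POLR2J and its copies gave different values. POLR2J had 3 peaks over 20.5% of its span, POLR2J2 had 4 over 81.8% and POLR2J3 had 5 over 79.7%. POLR2J2 lay mostly under a single peak of 5.99 kb (log2 ratio 3.19), whereas POLR2J3 lay under several peaks, the widest of which, 5.08 kb, ran out of the gene. The copies lie on chromosome 7, POLR2J2 from 102666046 to 102671663 and POLR2J3 from 102566966 to 102572583. Reads from near-identical copies can be placed at either, and the handling of such reads is not stated, so the cover of POLR2J2 and POLR2J3 is uncertain.

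Pol III genes fell into a covered and a sparse set. POLR3C had 12 peaks over 79.9% (chromosome 1, 145824200 to 145844402), POLR3K 8 over 68.3% (chromosome 16, 46407 to 53608), POLR3E 18 over 63.2% (chromosome 16, 22297409 to 22335096) and POLR3D 7 over 58.4%. POLR3D and POLR3E encode a heterodimer specific to Pol III, and POLR3C belongs with POLR3F to the subcomplex that opens Pol III promoters. POLR3F stood between, with 8 peaks over 27.0%. At the low end POLR3G and POLR3GL had 4 and 3 peaks over 6.20 and 5.53%. POLR3GL (chromosome 1, 145964690 to 145978848), a paralog of POLR3G, nevertheless held the strongest peak of the class, with a log2 ratio of 5.65.

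In Mediator, cover was highest at MED1, the subunit that binds nuclear receptors. MED1 (chromosome 17, 39404285 to 39451263) held 10 peaks over 82.3% of its span, the widest 10.9 kb with a log2 ratio of 3.61. MED17, a core head subunit (chromosome 11, 93784282 to 93814963), held 14 over 59.3%, with only 4.06% of the 20 kb on each side covered. MED28 (chromosome 4, 17614641 to 17634105) followed with 11 peaks over 49.2%, 5 of them with midpoints in FAM184B. No other Mediator gene reached 50%.

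The modules of Mediator overlapped in their values. Median cover was 18.7% in the 7 head genes, 17.1% in the 7 middle genes, 23.3% in the 5 tail genes and 15.3% in the 4 kinase-module genes. Head and middle genes other than MED1 and MED17 ran from 0% at MED6 and MED11 to 38.6% at MED10. Tail genes ran from 3.08% at MED23 to 43.5% at MED16, with 16.6% at MED15, 23.3% at MED24 and 28.2% at MED25. MED23 had 3 peaks, among them the strongest of the class, with a log2 ratio of 5.79 (chromosome 6, 131595003 to 131595669). MED15 (chromosome 22, 20507610 to 20587619), a tail subunit bound by activators, had 17. In the kinase module MED13 (chromosome 17, 61942605 to 62065278) held 30 peaks over 29.5%. MED12 (chromosome X, 71118596 to 71142450) held 9 over 42.0%. Their paralogs MED13L and MED12L, which are 319 and 351 kb long, had 6 and 3 peaks over 1.13 and 0.454%. MED14, the scaffold that joins the modules (chromosome X, 40648305 to 40736159), had no peak, and neither had the head genes MED6 and MED11.

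The other Mediator genes were assigned between 1 and 10 peaks. Those outside the 4 modules as grouped here were MED19 with 38.3% cover, MED26 with 10.8%, MED29 with 10.3%, MED30 with 2.57% and MED27 with 1.16%. The remaining head genes MED8, MED18, MED20 and MED22 lay between 14.4 and 24.5%, and the remaining middle genes MED4, MED7, MED9, MED21 and MED31 between 7.44 and 23.1%.

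Among TFIID genes TAF5, which encodes a scaffold subunit, was the most covered. TAF5 (chromosome 10, 103367976 to 103389065) held 13 peaks over 82.6% of its span, in a region where 53.1% of the 20 kb on each side was covered. TAF1, the largest TFIID subunit (chromosome X, 71366357 to 71530525), held 45 peaks over 36.1%, the most of the 100 members, and its strongest peak had a log2 ratio of 5.86. TAF4 (chromosome 20, 61974798 to 62065881) held 25 over 33.2% and TAF2 22 over 16.1%. TAF6, TAF8, TAF9, TAF10 and TAF13 lay between 22.2 and 36.7%, and TAF11, TAF12 and TAF3 at 9.0, 3.35 and 0.853%. TAF7 (chromosome 5, 141318490 to 141320784), a short gene, had no peak.

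The 4 SL1 genes all had peaks, with unequal cover. TAF1C (chromosome 16, 84177855 to 84187057) was 75.6% covered by 4 peaks and TAF1B (chromosome 2, 9843442 to 9934416) 25.7% by 28. TAF1A (chromosome 1, 222554105 to 222589933) was 13.4% covered by 7 and TAF1D (chromosome 11, 93730194 to 93741495) 10.3% by 5. The strongest peak of any member, with a log2 ratio of 6.57, lay just outside TAF1C with its midpoint in DNAAF1, while the 3 peaks inside the gene had log2 ratios of 2.74, 3.76 and 2.87. The SAGA genes TAF5L and TAF6L stood at 22.8 and 65.2%, and each of the 10 peaks of TAF6L had its midpoint in TMEM223 or NXF1. TAF15 (chromosome 17, 35809484 to 35847242), an RNA-binding protein of the FET family, had 15 peaks over 37.2%.

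The 4 genes grouped here as paralogs of TFIID subunits carried few peaks. TAF5L and TAF6L, grouped with SAGA above, are related to TAF5 and TAF6 and had 11 and 10 peaks. TAF4B (chromosome 18, 26226445 to 26391685) and TAF7L (chromosome X, 101268257 to 101293083), both known for roles in germ cells, had none. TAF9B had 2 peaks over 5.23%, and TAF1L had 1 in its flank and 0% cover. The corresponding subunits were at 33.2% for TAF4, 0% for TAF7, 30.05% for TAF9 and 36.1% for TAF1. All 4 peaks of TAF9 had midpoints in AK6 or RAD17, and 1 of the 2 of TAF9B in PGK1.

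The TAF11L copies stood apart from the other members in the strength of their peaks. These 13 genes lie in 137 kb of chromosome 5 (17498231 to 17635053), and 5 of the 12 steps between neighbouring copies were exactly 3434 bp. Together they held 13 distinct peaks, each assigned to 2 or 3 copies, so the 8 copies with a peak do not count independently. Log2 ratios ran from 0.90 to 1.70 with a median of 1.14. Ratios of 1.70 or less were found in 0.309% of all peaks. Peaks covered TAF11L3, TAF11L6 and TAF11L10 to 100%, TAF11L5 to 90.8% and TAF11L7 to 51.8%, whereas TAF11L9 had 28.6% and TAF11L4 and TAF11L8, with peaks in their flanks, had 0%. TAF11L2, TAF11L11, TAF11L12, TAF11L13 and TAF11L14 had no peak. As near-identical repeats they are as uncertain in read placement as POLR2J2, and the part of read placement in the low ratios was not tested. Without the TAF11L copies, TAF1L, POLR2J2 and POLR2J3, 76 of 84 members had a peak and 16 (19.0%) were covered over 50% or more.

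Outside the TAF11L copies, the peaks of members were ordinary in strength. The median log2 ratio was 2.88 for Pol I, 3.02 for Pol II, 2.95 for Pol III, 2.99 for Mediator and 2.92 for TAF genes without copies, against 2.95 over the peaks assigned to all protein-coding genes. Leaving out the copies, 9.49% of member peaks passed a log2 ratio of 4, against 11.7% of the peaks of all genes. The strongest peaks of POLR3GL and TAF6 were 500 bp wide, the smallest width in the list. The linear ratios of the strongest peaks at TAF1C, POLR2F, TAF1, MED23, TAF8, POLR3GL, TAF6 and MED27 were whole multiples of a step of 2.64. So were the highest ratios at other members, among them MED12L, MED16 and POLR1E. Such multiples made up 12.4% of the list but 98.5% of its highest 1% of ratios, so they are usual among high ratios. The read counts behind single ratios are unknown. Peaks of 5 kb or wider were found at 9 members, against 4.19% of all genes: POLR1A, POLR1B, POLR1C, POLR2A, POLR2J2, POLR2J3, POLR3A, MED1 and TAF1.

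**Figure D4:**
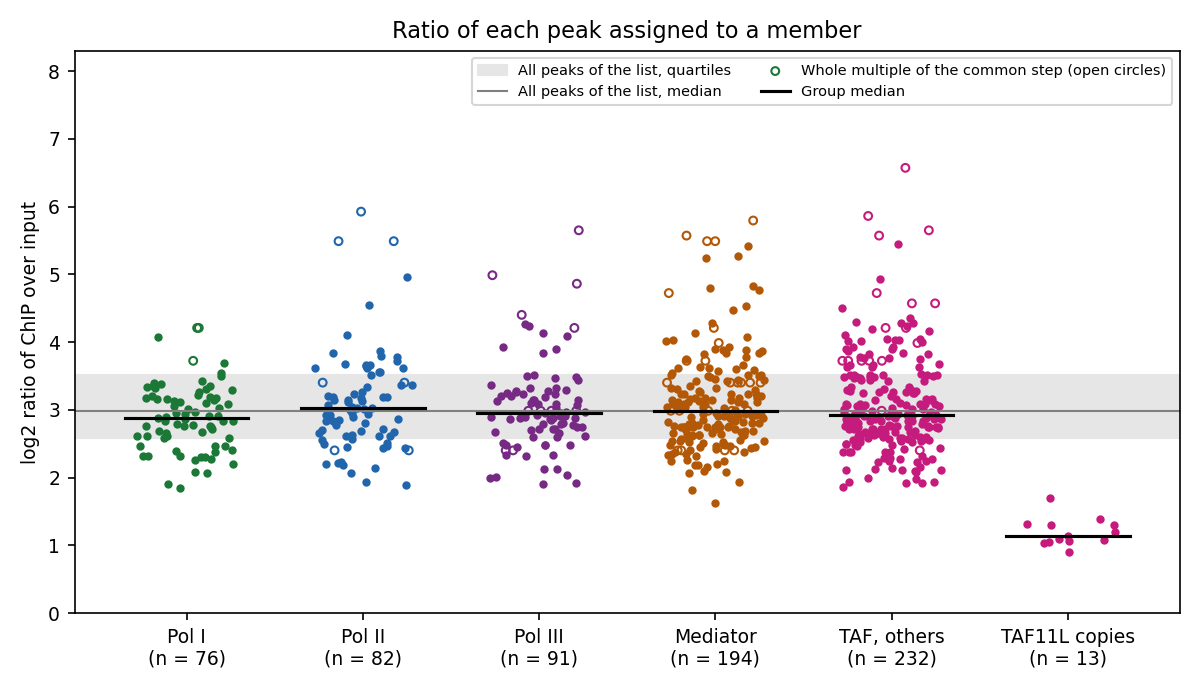
Log2 ratio of ChIP over input of each peak assigned to a member, by class, with group medians as black lines and the quartiles and median of the whole list in grey. Open circles are peaks whose linear ratio is a whole multiple of the common step. The 13 peaks of the TAF11L copies lie between 0.90 and 1.70, below all other TAF peaks.

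A start of the gene was known for 79 members, from the promoter windows of RefSeq. Those without a known start included POLR1E, POLR2G, POLR2I, POLR2J, POLR2J3, POLR2K, POLR3D, POLR3G, MED6, MED8, MED13, MED14, MED21, MED22, MED28, MED30, TAF1L, TAF2, TAF8 and TAF15. A peak midpoint within 1 kb of the start was found in 53 of the 79 (67.1%), against 37.4% of all protein-coding genes with a known start. By class it was 5 of 7 Pol I, 6 of 10 Pol II, 7 of 7 Pol III, 15 of 22 Mediator and 20 of 33 TAF genes. The strongest start peak of a member had a median log2 ratio of 2.65, near the 2.61 of all genes. With only the stronger part of the list, 12 members kept a start peak, and 9.88% of all genes. TAF5, one of the most covered genes, had no peak within 1 kb of its start, and neither had POLR2D, POLR2E, MED15, MED24 or MED25.

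Polymerase genes were covered at the start, then less over the next few kilobases, and most deeply inside the gene. Among genes of 20 kb or longer with a known start, the first 1 kb was covered to 51.8% on average in the 11 polymerase genes. The mean fell to 18.1% from 1 to 2 kb, 16.3% from 2 to 3 kb and 14.99% from 3 to 4 kb. It then rose to 54.2% from 5 to 10 kb and 68.8% from 15 to 20 kb. Over all protein-coding genes the mean was 22.1% in the first 1 kb, 6.40% from 2 to 3 kb and 10.7% from 15 to 20 kb, so there it did not return to its value at the start. The 12 Mediator genes went from 41.7% through 17.3% at 3 to 4 kb to 22% at 15 to 20 kb. The 11 TAF genes went from 35.5% to 23.9%, with their lowest value inside the gene, 15.7%, at 4 to 5 kb. These means rest on few genes a class.

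Genes of 10 kb or longer were also divided into 10 sections of equal length, numbered from the start. In the 16 polymerase genes the mean cover was 18.4% in section 1 and 50.2% in section 7. For all protein-coding genes it ran from 8.39% in section 2 to 14.4% in section 9. The 15 Mediator genes had their highest mean, 32.6%, in section 8 and their lowest, 16.2%, in section 6. The 15 TAF genes had 32.8% in section 8 and 10.9% in section 5. Section 1 was the one in which the most members had some cover, 76.1% of 46 genes. It was also the most often covered section over all protein-coding genes, at 46.1%.

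**Figure D5:**
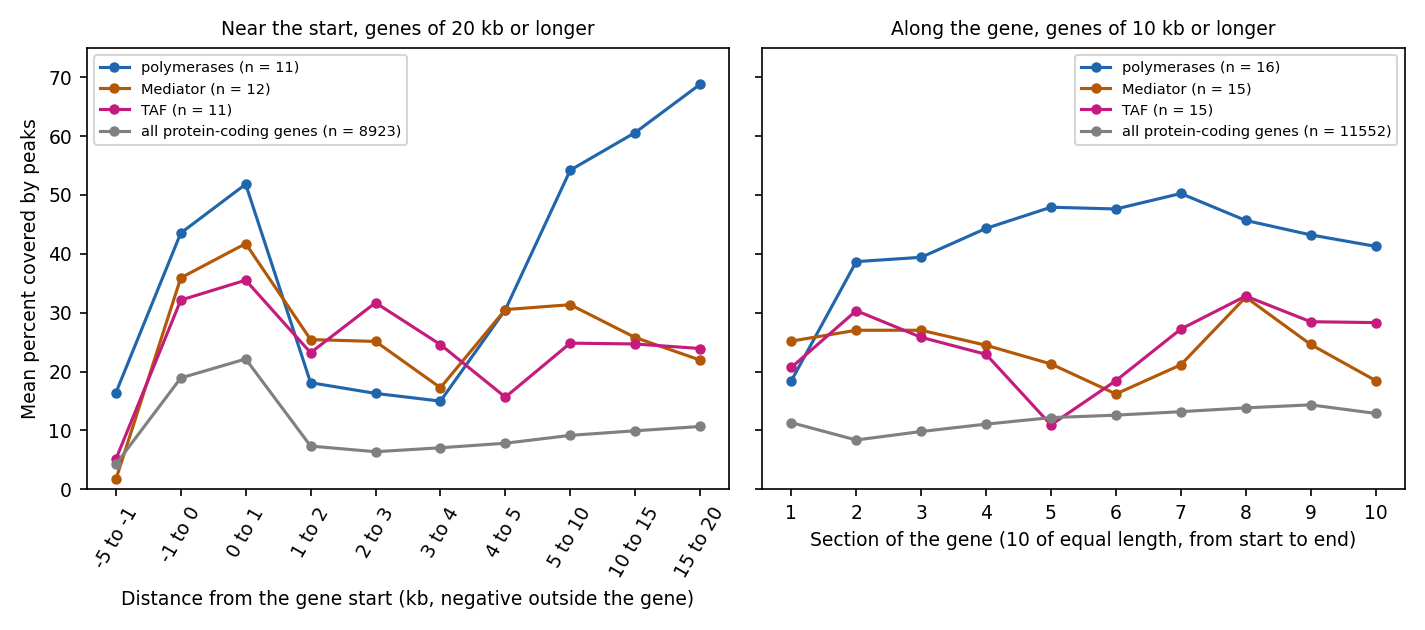
Mean percent covered by KDM1B peaks by distance from the gene start (left, genes of 20 kb or longer) and by section of the gene, 10 of equal length (right, genes of 10 kb or longer), for polymerase, Mediator, TAF and all protein-coding genes with a known start. The polymerase line dips to 14.99% at 3 to 4 kb inside the gene and reaches 68.8% at 15 to 20 kb.

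The sequence at the start of 5 large subunit genes shows what lay under or beside a start peak. Windows run 5′ to 3′ from 250 bases before to 50 after the start, from RefSeq on GRCh38.p14. Capitals mark matches to CCGGAAG, the core of ETS factor sites, on either strand. The windows of POLR1A (chr2:86105837-86106136, minus strand), POLR2A (chr17:7484116-7484415, plus strand), POLR3A (chr10:78029466-78029765, minus strand) and TAF1 (chrX:71366107-71366406, plus strand) lay wholly under a peak. These peaks had log2 ratios of 2.76, 2.84, 2.66 and 4.28. The window of MED1 (chr17:39451214-39451513, minus strand) lay under none, and the nearest peak began 446 bp from the start, outside the gene.
POLR1A: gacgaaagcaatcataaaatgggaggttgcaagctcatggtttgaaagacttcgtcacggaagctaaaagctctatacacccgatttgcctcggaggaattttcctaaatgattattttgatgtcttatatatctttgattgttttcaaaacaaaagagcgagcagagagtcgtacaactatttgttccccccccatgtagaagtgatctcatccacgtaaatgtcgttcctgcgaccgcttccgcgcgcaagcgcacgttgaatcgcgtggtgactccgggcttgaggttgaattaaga
POLR2A: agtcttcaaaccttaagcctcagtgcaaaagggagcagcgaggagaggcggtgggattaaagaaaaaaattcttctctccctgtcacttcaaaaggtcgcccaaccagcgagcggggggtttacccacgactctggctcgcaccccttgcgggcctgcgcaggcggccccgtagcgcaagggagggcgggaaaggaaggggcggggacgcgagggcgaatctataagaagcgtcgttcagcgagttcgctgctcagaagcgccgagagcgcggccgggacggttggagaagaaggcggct
POLR3A: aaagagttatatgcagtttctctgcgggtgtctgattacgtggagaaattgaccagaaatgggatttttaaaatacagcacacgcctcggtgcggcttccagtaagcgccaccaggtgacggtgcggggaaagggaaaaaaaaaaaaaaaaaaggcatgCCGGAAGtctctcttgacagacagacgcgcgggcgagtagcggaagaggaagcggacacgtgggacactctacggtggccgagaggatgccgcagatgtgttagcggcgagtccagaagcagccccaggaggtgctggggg
TAF1: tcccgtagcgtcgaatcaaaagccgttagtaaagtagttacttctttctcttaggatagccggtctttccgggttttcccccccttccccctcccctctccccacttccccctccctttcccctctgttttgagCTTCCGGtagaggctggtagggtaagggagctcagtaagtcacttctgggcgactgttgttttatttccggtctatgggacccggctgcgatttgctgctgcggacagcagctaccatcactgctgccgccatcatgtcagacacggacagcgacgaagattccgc
MED1: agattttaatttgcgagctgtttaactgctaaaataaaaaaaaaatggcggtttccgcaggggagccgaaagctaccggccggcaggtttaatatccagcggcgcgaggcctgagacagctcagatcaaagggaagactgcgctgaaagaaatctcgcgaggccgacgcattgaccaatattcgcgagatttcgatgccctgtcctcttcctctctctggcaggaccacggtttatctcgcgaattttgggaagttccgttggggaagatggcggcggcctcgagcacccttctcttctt

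The windows under peaks were not alike in base composition. GC content was 44.7% at POLR1A, 61.3% at POLR2A, 54.3% at POLR3A and 55.3% at TAF1, and 52.0% at MED1. The window of POLR2A held 28 CpG dinucleotides, MED1 24, POLR3A 21, POLR1A 19 and TAF1 17. Over the 79 members with a window the median GC content was 58.0% and the median CpG count 22, against 62.7% and 22 for all protein-coding genes. Members with a start peak had a median GC content of 59.0% and those without 55.3%. Over all genes the same split gave 67% and 59.7%. The TAF11L copies, with a median of 52.3%, were counted on both sides of the split of members.

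The ETS core was found in 24 of the 79 members' windows (30.4%), against 14.2% of the windows of all protein-coding genes. None of the 13 TAF11L windows held it, and without them the share was 36.4% of 66. With those copies counted, it was found in 16 of the 53 members with a start peak (30.2%) and in 8 of the 26 without (30.8%), a difference that was not tested. Over all genes it was found in 21.4% of windows with a start peak and in 9.90% of those without. The letters TATAAA, on either strand, occurred in 6 members (7.59%), among them MED7, MED16, POLR2M and TAF4B, and in 9.64% of all windows. These matches describe letters in 300 bases and say nothing of bound factors.

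Other genes of the machinery, listed by function, were counted in the same way. The list held 72 genes: initiation, elongation and assembly factors, the kinases and cyclin of Mediator, and the mitochondrial polymerase. Of these, 70 had a peak in the gene or within 5 kb, against 67.5% of all protein-coding genes. The median length on the list was 31.04 kb, and of all genes from 30 to 100 kb 77.4% had a peak. The median cover was 18.2%. All 22 Pol II elongation factors had one, with a median cover of 30.7%, led by NELFCD, a subunit of the pausing factor NELF, at 94.0%. All 16 Pol III initiation factors had one, with a median of 26.0%, and SNAPC4 at 82.3%. Of 22 Pol II initiation factors 21 had one, with a median of 10.1%, the helicase gene ERCC2 at 93.5% and only GTF2H4 without. The 3 Pol I factors had one, with 70.6% at TTF1, and so had the 5 assembly factors, with 43.3% at GPN1, and the mitochondrial polymerase POLRMT, at 67.4%. Cover of 50% or more was found in 15 of the 72 (20.8%), against 7.28% of all protein-coding genes.

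The kinases and the cyclin of the Mediator kinase module were on the same list. CDK8 had no peak, CDK19 had 1 over 0.244% of its span and the cyclin gene CCNC 4 over 6.06%. CDK8, CDK19 and CCNC are 151, 206 and 26.4 kb long. In the same module MED12 and MED13, 23.9 and 123 kb long, held 9 and 30 peaks. MED12L and MED13L, 351 and 319 kb long, held 3 and 6.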

How the data were processed

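Chromatin of MDA-MB-231 cells with tagged KDM1B was crosslinked, sonicated and precipitated, and sequenced beside input, per the labels' protocols. Trim Galore 0.4.5 and Bowtie2 2.2.9 with hg38 come from the submitters' processing notes. Neither peak calling and its cutoffs, nor library scaling, nor the treatment of repeat reads is stated there or in the labels. The deposited list gives 78536 peaks with coordinates and the log2 of a ChIP to input ratio; that the unit is log2 was read from the values, since linear ratios share a step. Sequencing depth is unknown, so no counting interval could be given. Whether peak starts count from 0 or 1 is not stated; they are printed as deposited, and cover was computed as if from 0.

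Gene spans came from RefSeq (GRCh38.p14), without exons, and starts and strand from its promoter table, for 15812 of 19970 protein-coding genes. A peak was assigned to every gene within 5 kb of its midpoint, so neighbours can share it, and cover counts bases under peaks in the span. A change of more than 1.5 times was counted as a move. The common step was found by dividing the most frequent linear ratio by the smallest whole number that made nearly all of the highest 1% whole multiples (tolerance 1e-05). An NRF1 motif was also searched in the promoter windows and its result left out, because of the motif's length and not its result. Interval code was tested on simulated data. Alternatives were other flanks, overlap, the stronger part of the list, joined peaks, no copies and peaks in no other gene, plus removal of whole multiples, added after the data were seen. Members and lists were chosen with earlier results of these data known. Fully described genes were the 3 most covered, the 3 with most peaks and the 1 strongest of each class, the catalytic subunits and listed Mediator and TAF genes; others are named in groups, and genes singled out beyond this were chosen after their values were seen. The work used Python 3.11.15, numpy 2.4.6, pandas 2.3.3 and matplotlib 3.10.9. The values of 1 member are not reported here, though it is counted among the members.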

Additional observations from a re-analysis of the deposited data

How the results depend on the processing

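No paired analysis was possible because each group had 1 library, and for the same reason no library could be left out. Of 180 values under the alternatives, 149 stayed within 1.5 times the value reported, among them all 54 counts of members with a peak. A count within that limit can still lose its distance from all genes. With only the stronger part of the list, 75 of 100 members had a peak, against 55.7% of all genes. For TAF genes it was 20 of 37, no longer above that share. The TAF11L peaks, with log2 ratios of 1.70 or less, are not in that part. The 31 values that moved by more than 1.5 times were these. With only the stronger part of the list, which holds fewer peaks, the median number of peaks was 2 for all members, 2 for Pol II, 4 for Pol III, 2 for Mediator and 1 for TAF genes. Median cover was then 6.10% for all members, 17.3% for Pol I, 11.97% for Pol II, 16.3% for Pol III, 6.28% for Mediator and 0% for TAF genes, and members with a start peak were 12 in all, 1 in Pol I, 0 in Pol II, 3 in Pol III, 5 in Mediator and 3 in TAF genes. Without the flank the median number of peaks was 2 for all members, 2 for Pol II, 4.5 for Pol III and 1 for TAF genes; with 1 kb it was 2 for Pol II and 2 for TAF, and with 10 kb 8 for Pol II. Joining peaks within 1 kb gave 3.5 for Pol I and 4 for Pol III, and peaks in no other gene 2.5 for Pol I and 2 for Pol II. Peaks at either end of the gene, which includes genes without a known start, gave 10 of 15 Pol II members in place of 6 of 10. Over all genes either end gave 41.9%, and the start 37.4%. Without copies the TAF median was 7 peaks. A start peak was then found in 13 of 20 TAF genes with a known start (65.0%), and with copies in 20 of 33 (60.6%). There the count moved because genes were removed, while the share stayed similar. The depth of the libraries is unknown, so which weaker peaks it could not show is unknown too.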
